A study of Mus musculus with 5 samples.

Results

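The Hedgehog ligands, receptors and targets described here were 8 genes (Dhh, Ihh, Ptch1, Smo, Hhip, Gli1, Gli2 and Gli3) of the 31053 genes counted in single cells of the juvenile mouse ovary. They were chosen as the core of the pathway by what is known of their function. No measured value entered the rule, but earlier results of these data were known when the genes were chosen. Ovaries were taken from untreated C57BL6/J mice at 2, 3, 4, 5 and 6 wk of age, dissociated with trypsin and sorted for live cells, and 1 droplet library was made per age. Strain and treatment were the same in all 5 libraries, and the number of mice behind each library is not given in the sources used here. Age and library therefore cannot be told apart, and no test was run between ages. Comparisons between cell types used the 5 libraries as replicates.

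Hedgehog ligands are secreted proteins that bind Patched receptors on receiving cells. Binding lifts the block that Patched places on Smoothened, and Gli transcription factors then switch on target genes, among them Ptch1, Hhip and Gli1, which feed back on the pathway. In the ovary, granulosa cells of growing follicles are known to release Dhh and Ihh, and the mesenchymal cells around the follicle, including the precursors of the androgen-producing theca layer, are known to respond.

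The libraries held 48163 cells, between 7779 and 11077 per library, with library totals between 93438618 and 144609431 unique molecular identifiers (UMIs, each marking 1 captured RNA molecule) and a median of 9056 to 12424 UMIs per cell. Between 2.08 and 5.01% of the cells were called doublets, and 546 cells carried a barcode that another library also held. Clusters were named from marker genes, with none of the 8 genes used to build or name them, and 38506 cells received a name. The named classes held 18171 granulosa-like, 10180 stromal-like, 4227 smooth muscle-like, 3231 theca-like, 854 pericyte-like, 712 blood endothelial-like, 495 hematopoietic-like, 322 surface epithelial-like, 224 lymphatic endothelial-like and 90 rete ovarii-like cells. Each marker was highest in its own class apart from Egfl7 and Epcam, and no cluster was named from the germ cell markers. Because the classes were built from other genes of the same cells, their p-values describe groups made in that way. Levels are given as CPM, meaning each gene's UMI count per 1000000 UMIs summed over all genes in the same class and library, and since only the 3′ ends of transcripts were counted, levels are compared between cells and not between genes.

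The theca-like class needs a caution. It joined a cluster of 790 cells led by the steroid enzymes Cyp11a1 and Cyp17a1, in which all 6 theca markers were detected, with a cluster of 2441 cells led by Hhip itself, in which 3 of the 6 were detected. At a coarser resolution (0.6), or with the pathway genes kept in the clustering, the theca-like class was drawn differently. Its Hhip level at 5 wk over that at 2 wk was then 0.191 and 0.114. These values lay between 0.436 for the class used here and 0.0208 for the class without the Hhip-led cluster. The study also used Hhip to mark early theca cells, so the naming of these cells and their Hhip level are not independent. The members' tests of theca-like cells and their age ratios are given with and without the Hhip-led cluster, while other theca-like values and shares of cells include it.

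In the GRCm38 annotation, Dhh lies on the minus strand at chr15:98891152-98898540 and Ihh on the minus strand at chr1:74945315-74951672, each with 3 exons. Dhh overlaps Rhebl1 on the same strand, and reads in the shared stretch cannot be told apart. Rhebl1 itself lay between 3.41 and 7.22 CPM in granulosa-like cells. Ptch1 spans chr13:63508328-63573598 on the minus strand, Smo chr6:29735503-29761365 on the plus strand and Hhip chr8:79965851-80058006 on the minus strand. Gli1 lies at chr10:127329882-127341974 on the minus strand, opposite part of Arhgap9, Gli2 at chr1:118834132-119053619 on the minus strand and Gli3 at chr13:15463235-15730026 on the plus strand.

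Both ligands were highest in granulosa-like cells. Dhh, the desert hedgehog ligand, stood at 34.1, 45.8, 34.6, 35.1 and 37.9 CPM in granulosa-like cells at 2, 3, 4, 5 and 6 wk. The same libraries gave 1.35, 1.34, 2.33, 1.42 and 0.505 CPM in stromal-like cells. Every granulosa value lay above every stromal value, and the ratio within a library ran from 14.8 to 75.1. Ihh, the indian hedgehog ligand, reached 77.6, 90.1, 58.7, 61.2 and 93.9 CPM in granulosa-like cells, against 0.779 to 1.94 CPM in stromal-like cells. The groups did not overlap, and the ratio within a library ran from 36.1 to 78.6.

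In the fit across 13886 genes, Dhh was higher in granulosa-like than in stromal-like cells by a log2 fold change of 4.64 (SE 0.399, adjusted p = 7.75e-13, edgeR's quasi-likelihood test with Benjamini-Hochberg adjustment). Ihh was higher by 5.45 (SE 0.274, adjusted p = 1.84e-20). Against theca-like cells the log2 differences were 3.57 for Dhh (SE 0.385, adjusted p = 3.63e-10) and 5.64 for Ihh (SE 0.291, adjusted p = 9.08e-20). Dhh in the theca-like class was 1.21, 1.82, 2.25, 8.05 and 0.441 CPM, so the library of 5 wk, with 137 UMIs, stood above the other 4. Ihh there stayed between 0.661 and 2.25 CPM in all 5 libraries.

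**Figure D1:**
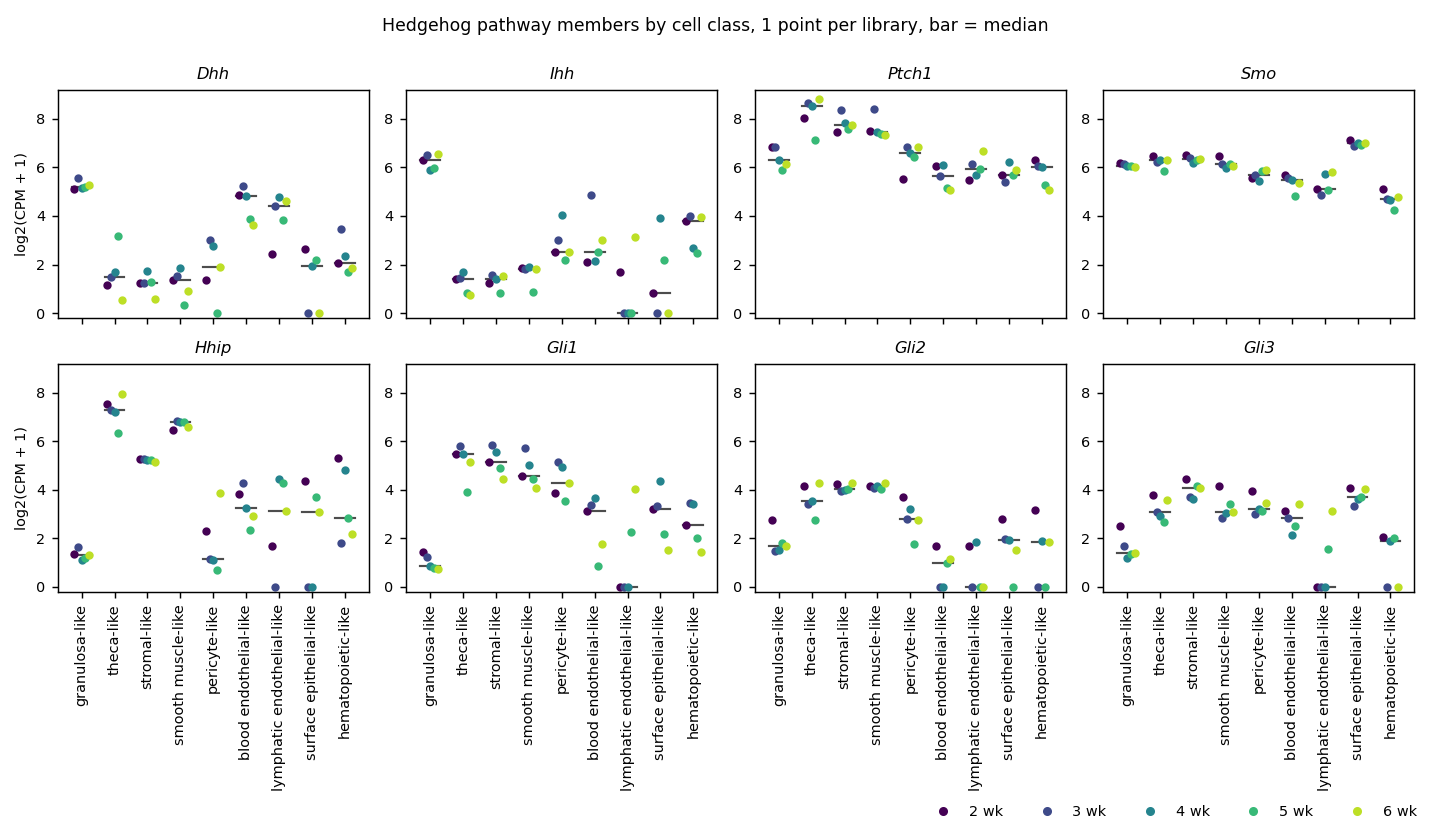
Level of each of the 8 genes in 9 cell classes, as log2(CPM + 1) on the vertical axis, with 1 point per library coloured by age and a bar at the median. Dhh and Ihh are highest in granulosa-like cells, whereas Ptch1, Hhip and Gli1 are highest in the theca-like, stromal-like and smooth muscle-like classes.

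Sonic hedgehog was barely counted, with 3 Shh UMIs in 2 of the 48163 cells. Outside the granulosa-like class, Dhh was also counted in endothelium. Blood endothelial-like cells gave 28.4, 37.2, 27.0, 13.5 and 11.3 CPM from 142 UMIs in all, and lymphatic endothelial-like cells between 4.44 and 26.3 CPM. The blood endothelial range overlapped the granulosa range. Hematopoietic-like cells, which should lack the ligand, held 2.27 to 10.1 CPM. For Ihh, blood endothelial-like cells held 50 UMIs in all and lay at 3.27 to 27.9 CPM, a range that overlapped the 4.54 to 15.2 CPM of hematopoietic-like cells. Endothelial levels of Dhh were not put to a test, and free RNA from granulosa cells was not tested as their source.

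The 250 bases before the annotated start of each ligand gene are shown because both genes had their highest level in the same class (RefSeq, GRCm38.p6, minus strand, chr15:98898541-98898790 for Dhh and chr1:74951673-74951922 for Ihh). Capitals mark a match on the opposite strand to CAAGGNCA, where N is any base. It is a loose pattern for the site of NR5A nuclear receptors, a family that includes the granulosa factor Nr5a2.
Dhh: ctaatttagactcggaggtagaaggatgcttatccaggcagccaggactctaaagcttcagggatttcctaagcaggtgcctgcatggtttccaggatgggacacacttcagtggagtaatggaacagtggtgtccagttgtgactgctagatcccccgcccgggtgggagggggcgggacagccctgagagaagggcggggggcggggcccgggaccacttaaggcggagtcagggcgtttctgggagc
Ihh: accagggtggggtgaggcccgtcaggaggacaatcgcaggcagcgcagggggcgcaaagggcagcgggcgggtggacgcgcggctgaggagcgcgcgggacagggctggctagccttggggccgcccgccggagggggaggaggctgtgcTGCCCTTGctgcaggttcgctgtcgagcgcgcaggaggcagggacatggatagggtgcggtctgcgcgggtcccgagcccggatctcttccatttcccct
This letter pattern occurred in Ihh and in none of the other 6 genes with a sequence, and in 5.53% of 32851 mouse promoters of the same length searched on both strands. A match of letters does not show binding, and the absence of one says nothing of the factor.

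Within the granulosa-like class, cells were grouped by stage markers, and groups in which the markers of a pair of stages were nearly level were left without a name. This gave 650 primordial-like, 1396 primary-like, 1790 antral-like, 3455 remodeling-like and 2892 dividing cells. No cluster could be named secondary-like, and 2755 cells with primary and secondary markers, 1805 with antral and remodeling markers and 1599 with antral and secondary markers stayed apart as mixed. A further 1829 cells had no name. They included a cluster of 1160 cells nearest the primary markers, whose leading genes held more markers of another list. It held 46.6 CPM of Dhh, 78.3 CPM of Ihh and 158 CPM of Ptch1, and is not part of the primary-like group. The term remodeling is the study's name for granulosa cells of degenerating first-wave follicles.

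Dhh was lowest at both ends of the series. Primordial-like cells held 13.6, 13.0, 12.3, 9.93 and 16.4 CPM from 2 to 6 wk, and primary-like cells 40.5, 40.3, 59.3, 55.7 and 45.5 CPM. These groups did not overlap in any library, and Dhh was higher in primary-like cells by a log2 fold change of 1.88 (SE 0.262, adjusted p = 1.86e-05). Antral-like cells held 45.1, 90.1, 31.5, 61.4 and 57.5 CPM, and remodeling-like cells 19.7, 17.9, 9.91, 13.4 and 12.6 CPM. Again every antral value exceeded every remodeling value, and Dhh was lower in remodeling-like cells by a log2 fold change of -2.02 (SE 0.201, adjusted p = 1.49e-07). The cells behind the remodeling-like values, here and for Ihh below, changed with age. A cluster led by Pamr1 supplied 119 of 125 such cells at 2 wk and 105 of 169 at 3 wk, but 223 of 1468 at 4 wk. The libraries thus do not repeat the same mixture of cells.

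Among the named groups, Ihh had its highest medians in antral-like and dividing cells, although at 4 wk the antral value lay below the primary-like one. It measured 25.7, 29.5, 38.4, 17.9 and 44.2 CPM in primordial-like cells and 35.6, 46.8, 62.8, 32.5 and 65.1 CPM in primary-like cells. Those ranges overlapped, and the log2 difference of 0.73 (SE 0.322, adjusted p = 0.105) did not pass the test. It passed where the groups were rebuilt with the pathway genes kept in the clustering (1.41, adjusted p = 6.03e-04) or at resolution 0.6 (1.52, adjusted p = 1.52e-04). In antral-like cells Ihh was 118, 101, 36.6, 75.3 and 98.6 CPM, and in remodeling-like cells 15.3, 43.4, 17.5, 17.8 and 16.9 CPM. The antral library of 4 wk overlapped the remodeling library of 3 wk, although the antral value was higher within each of the 5 libraries, and Ihh was lower in remodeling-like cells by a log2 fold change of -2.001 (SE 0.269, adjusted p = 1.88e-05). Dividing granulosa cells held 81.2 to 126 CPM of Ihh and 29.9 to 54.7 CPM of Dhh.

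The antral-like group combined a pair of clusters with unlike ligand levels. The cluster led by Cyp11a1, Inhba and Cyp19a1, genes of steroid and inhibin production, held 73.4 CPM of Dhh and 106 CPM of Ihh over the 5 libraries, and the other cluster 31.6 and 56.1 CPM. The 3 remodeling-like clusters were also unequal, with 19.96 CPM of Dhh and 32.8 CPM of Ihh in the cluster led by S100a6 and Igfbp4 and no more than 9.3 and 11.2 CPM in the other two. These values pool libraries and were not tested.

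**Figure D2:**
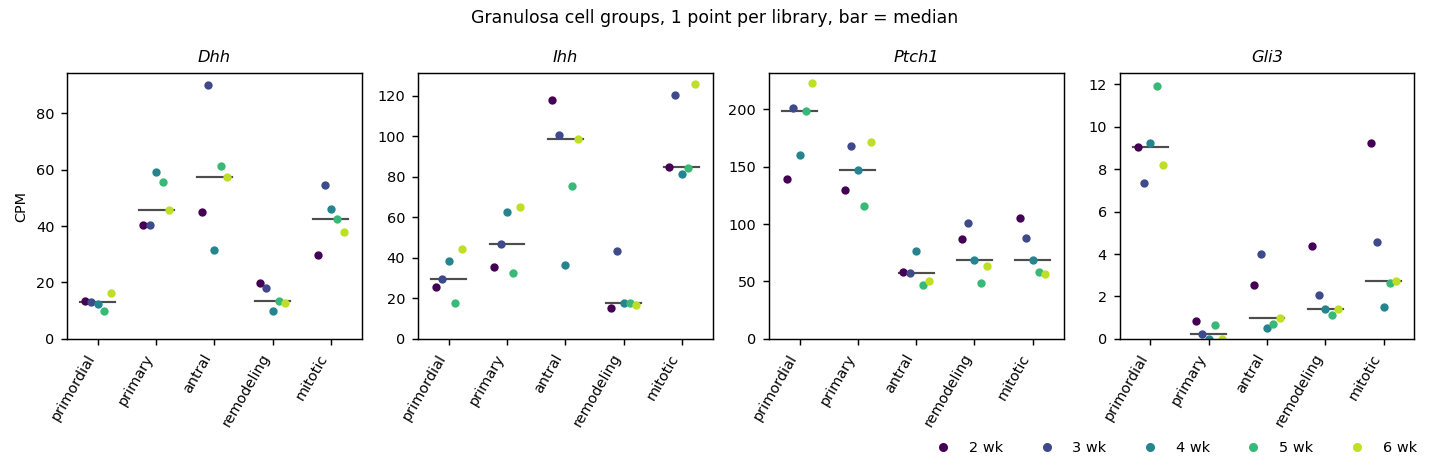
Levels of Dhh, Ihh, Ptch1 and Gli3 in CPM in 5 groups of granulosa-like cells, with 1 point per library coloured by age and a bar at the median. Both ligands are lower in remodeling-like than in antral-like cells, and Gli3 is highest in primordial-like cells.

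Of the 6 members that could be tested among granulosa groups, 2 passed between primary-like and primordial-like cells (Dhh higher and Gli3 lower), where 10.1% of all 11892 genes passed in either direction. A gene counted as passing at an adjusted p under 0.05 and a change of at least 2-fold. Between remodeling-like and antral-like cells 2 of 6 passed (Dhh and Ihh, both lower), where 9.18% of all genes did. Hhip and Gli1 were too sparse in granulosa-like cells to enter these fits. Gli3, which acts mainly as a repressor of the pathway, stood at 9.06, 7.37, 9.23, 11.9 and 8.18 CPM in primordial-like cells, from 60 UMIs in all. In primary-like cells it was 0.84, 0.224, 0, 0.663 and 0 CPM, from 7 UMIs, and the groups did not overlap. The fitted log2 difference was -4.40 (SE 0.571, adjusted p = 4.66e-06). Ptch1 was 139 to 222 CPM in primordial-like and 115 to 171 CPM in primary-like cells, and this difference did not pass the test (log2 difference -0.29, SE 0.185, adjusted p = 0.279).

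The response genes had the opposite distribution. Ptch1, the receptor and a standard target of the pathway, measured 263, 406, 371, 138 and 457 CPM in theca-like cells from 2 to 6 wk. Stromal-like cells held 176, 328, 226, 192 and 211 CPM, and smooth muscle-like cells 179, 343, 178, 166 and 161 CPM. Granulosa-like cells as a class held 113, 113, 77.5, 59.3 and 69.8 CPM, below every stromal value in all 5 libraries. This does not hold for each granulosa group. Primordial-like cells held 139 to 222 CPM, a range that overlapped the stromal range, whereas primary-like cells, at 115 to 171 CPM, lay below it. The log2 difference between granulosa-like and stromal-like cells was -1.61 (SE 0.218, adjusted p = 4.71e-08), and that between granulosa-like and theca-like cells was -2.07 (SE 0.222, adjusted p = 3.71e-10). Hematopoietic-like cells held 33.0 to 77.8 CPM of Ptch1, a range that overlapped the granulosa range.

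Hhip, a membrane protein that binds and sequesters the ligands, stood at 186, 157, 147, 81.1 and 245 CPM in theca-like cells. In stromal-like cells it kept to 34.4 to 37.7 CPM, and in smooth muscle-like cells to 88.3 to 113 CPM. Theca-like and smooth muscle-like values all lay above the stromal range. Hhip was higher than in stromal-like cells by a log2 fold change of 2.07 in theca-like cells (SE 0.313, adjusted p = 3.15e-06) and of 1.55 in smooth muscle-like cells (SE 0.308, adjusted p = 1.92e-04). The smooth muscle difference no longer passed with the pathway genes kept in the clustering (0.48, adjusted p = 0.336) or, by its size, at resolution 0.6 (0.95, adjusted p = 0.0360). Granulosa-like cells held 1.14 to 2.13 CPM, below the 2.53 to 38.1 CPM of hematopoietic-like cells.

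Gli1, a transcription factor whose own gene is a target of the pathway, was 43.0, 54.4, 43.5, 14.1 and 34.5 CPM in theca-like cells and 33.9, 57.1, 46.1, 28.5 and 20.6 CPM in stromal-like cells. These ranges overlapped, and the log2 difference of -0.04 (SE 0.220, adjusted p = 0.934) did not pass. In granulosa-like cells Gli1 was at most 1.70 CPM, no higher than the 1.73 to 10.1 CPM of hematopoietic-like cells. Gli2, an activator, lay between 14.3 and 18.4 CPM in stromal-like and between 15.4 and 18.4 CPM in smooth muscle-like cells, and Gli3 between 11.3 and 20.8 CPM in stromal-like cells. Granulosa-like cells held 1.81 to 5.79 CPM of Gli2 and 1.29 to 4.73 CPM of Gli3. Neither range overlapped the stromal range.

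Smo, the signal transducer that Patched holds in check, varied little among the main classes. It lay between 56.2 and 90.7 CPM in the granulosa-like, theca-like, stromal-like and smooth muscle-like classes. The surface epithelial-like class was higher, at 119 to 140 CPM, and its range overlapped that of no other class. Granulosa-like cells held less Smo than stromal-like cells by a log2 difference of -0.47 (SE 0.0998, adjusted p = 6.72e-05), which is short of 2-fold.

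Counted together, 7 of the 8 members passed the test between granulosa-like and stromal-like cells, 2 higher (both ligands) and 5 lower (Ptch1, Hhip, Gli1, Gli2 and Gli3), where 32.8% of all genes passed. Between granulosa-like and theca-like cells the same 7 passed in the same directions, where 27.5% of all genes passed. Without the Hhip-led cluster 4 members passed in this comparison, Dhh and Ihh higher and Gli1 and Hhip lower, where 3503 of 13529 genes passed. The log2 difference of Ptch1 was then -0.15 (adjusted p = 0.616) and that of Gli2 turned to 0.74. The median log2 difference of the 8 members between granulosa-like and stromal-like cells was -2.22, against -0.02 over all genes.

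Between theca-like and stromal-like cells 1 of 8 passed (Hhip, higher), where 12.6% of all genes passed. The same gene alone passed between smooth muscle-like and stromal-like cells, where 10.1% of all genes did. Ptch1 was higher in theca-like than in stromal-like cells in 4 of 5 libraries, with ratios between 0.718 and 2.16, and did not pass (log2 difference 0.46, SE 0.214, adjusted p = 0.0961). Without the Hhip-led cluster 5 of 8 passed, where 24.9% of all genes did. In that fit Dhh was higher by a log2 difference of 2.33, and Ptch1 (-1.46), Gli1 (-2.22), Gli2 (-3.58) and Gli3 (-2.39) were lower, while Hhip (0.72, adjusted p = 0.219) did not pass.

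The starts of the Ptch1 and Hhip genes are shown because both genes are direct targets of the pathway and both passed among the mesenchymal groups described next (RefSeq, GRCm38.p6, minus strand, chr13:63565736-63565985 for Ptch1, a start inside the annotated gene, and chr8:80058009-80058258 for Hhip). No stretch is in capitals, since neither held a searched motif.
Ptch1: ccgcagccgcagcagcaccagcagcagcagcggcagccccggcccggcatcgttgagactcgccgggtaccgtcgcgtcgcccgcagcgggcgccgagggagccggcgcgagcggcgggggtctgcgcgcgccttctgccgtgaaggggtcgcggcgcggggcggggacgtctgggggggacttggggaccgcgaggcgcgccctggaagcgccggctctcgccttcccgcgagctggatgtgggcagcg
Hhip: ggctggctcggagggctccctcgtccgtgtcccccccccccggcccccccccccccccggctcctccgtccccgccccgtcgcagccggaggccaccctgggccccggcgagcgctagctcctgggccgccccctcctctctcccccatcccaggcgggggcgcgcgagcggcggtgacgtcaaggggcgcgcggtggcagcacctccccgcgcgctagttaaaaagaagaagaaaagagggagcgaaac
The Gli site TGGGTGGTC was found in none of the 7 members with a promoter sequence, and in 0.225% of 32851 promoters. A relaxed form that includes it, TGGGNGGNC, was found in Gli2 and Smo, and in 5.84% of promoters. Windows of 250 bases before a start leave out distant enhancers, so these letters say nothing of Gli binding elsewhere.

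Mesenchymal cells were then regrouped by themselves. This gave 1682 early theca-like cells, 1486 steroidogenic theca-like cells, 4039 smooth muscle-like cells, 1626 dividing cells and 5 stromal groups called by the gene that leads their marker list, with 3781 Hoxd9, 2068 Cxcl12, 1750 Cd24a, 1649 Col11a1 and 827 Col14a1 cells. In early theca-like cells the 6 theca markers summed to 11.4 to 54.7 CPM, against 785 to 9752 CPM in steroidogenic theca-like cells, and between 1 and 3 of the 6 were at 0 in each library. The same sum was 4.43 to 36.7 CPM in stromal-like and 20.9 to 146 CPM in granulosa-like cells. In each library early theca-like cells lay above stromal-like and below granulosa-like cells. The name early theca-like thus rests on its own marker list and not on these 6 genes.

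Early theca-like cells had high levels of most response genes. Ptch1 stood at 245, 483, 472, 372 and 439 CPM, and Hhip at 130, 147, 147, 194 and 159 CPM. Ptch1 was above the Hoxd9, Cxcl12, Col11a1, Col14a1 and smooth muscle-like groups in every library, whereas the Cd24a group, at 379, 433, 316, 335 and 339 CPM, overlapped it and was higher at 2 wk. Hhip in the Cd24a group was 143, 69.9, 52.8, 74.4 and 64.1 CPM, and in the Col11a1 group only 3.12 to 14.9 CPM. The smooth muscle-like clusters were unequal over the 5 libraries. The cluster led by Pcp4, of 270 cells, held 6.11 CPM of Hhip and the others 127 and 89.4 CPM. Against the mean of the other groups that were not dividing, Hhip was higher in early theca-like cells by a log2 fold change of 2.08 (SE 0.242, adjusted p = 8.09e-08) and Ptch1 by 1.09 (SE 0.169, adjusted p = 7.75e-06). Gli1 (0.81, SE 0.170, adjusted p = 3.53e-04) and Gli2 (0.74, SE 0.158, adjusted p = 3.63e-04) were higher by less than 2-fold. In all, 2 of 8 members passed, where 4.88% of all genes passed. The study marked its early theca cells with Hhip and chose several of the group markers on these libraries. The Hhip difference is therefore not independent of the group's name. Without the library of 5 wk the log2 fold change of Ptch1 was 0.999, just short of 2-fold.

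**Figure D3:**
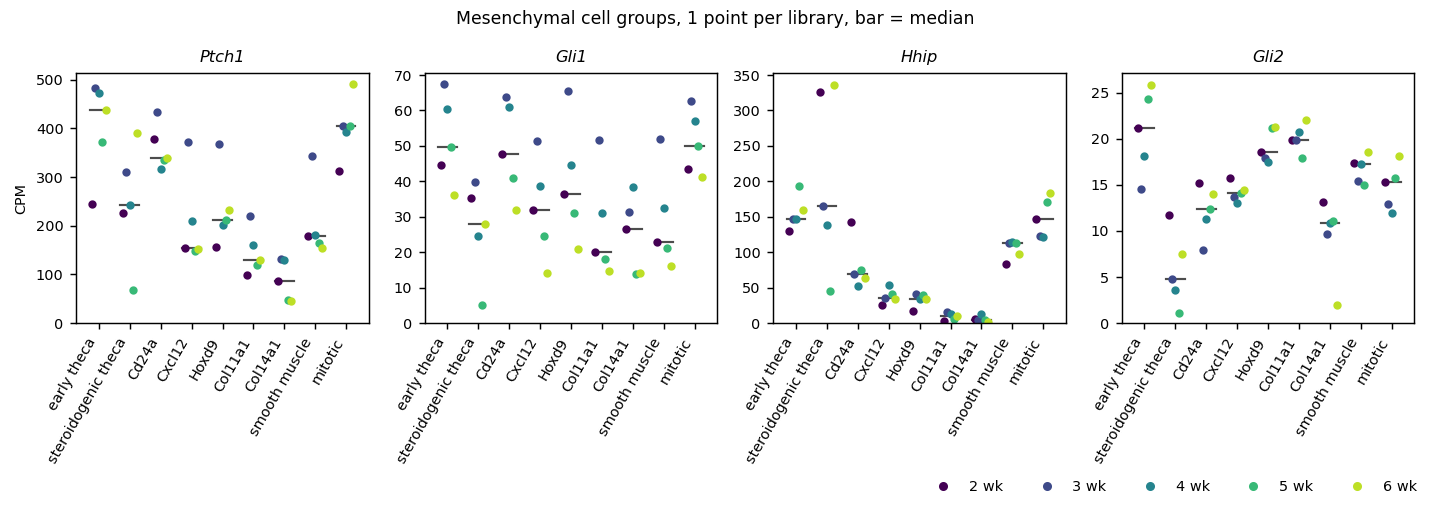
Levels of Ptch1, Gli1, Hhip and Gli2 in CPM in 9 groups of mesenchymal cells, with 1 point per library coloured by age and a bar at the median. Hhip separates the theca-like, smooth muscle-like and dividing groups from the Col11a1 and Col14a1 groups, and the steroidogenic theca-like group at 5 wk lies far below its other libraries.

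Dividing mesenchymal cells were close to early theca-like cells. They held 312, 405, 392, 405 and 491 CPM of Ptch1 and 147, 123, 121, 170 and 183 CPM of Hhip. Both ranges overlapped those of the early theca-like group, and this pair of groups was not tested.

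Steroidogenic theca-like cells had less of the Gli genes. Gli1 was 35.2, 39.7, 24.7, 5.23 and 27.9 CPM there and 44.7, 67.4, 60.3, 49.6 and 36.2 CPM in early theca-like cells, lower in every library. Gli2 was 11.7, 4.76, 3.601, 1.05 and 7.52 CPM against 21.1, 14.6, 18.1, 24.4 and 25.9 CPM, with no overlap. The log2 differences were -1.20 for Gli1 (SE 0.247, adjusted p = 1.36e-04) and -2.28 for Gli2 (SE 0.256, adjusted p = 1.82e-09). Without the library of 5 wk the difference of Gli1 was -0.78 and no longer reached 2-fold. Ptch1 (-0.83, SE 0.245, adjusted p = 0.00603) and Gli3 (-0.88, SE 0.199, adjusted p = 3.50e-04) were lower by less than 2-fold. Hhip, at 326, 166, 139, 45.1 and 336 CPM, was above early theca-like cells in 3 libraries and below them in 2, and did not pass (0.24, SE 0.334, adjusted p = 0.611).

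Dhh was higher in steroidogenic than in early theca-like cells by a log2 fold change of 1.87 (SE 0.531, adjusted p = 0.00368), and 133 of its 153 UMIs there came from the library of 5 wk. That library held 9.94 CPM and the others 0 to 2.49 CPM. All 5 values lay under 10.1 CPM, the highest hematopoietic value of a single library. Pooled over libraries, hematopoietic-like cells held 3.54 CPM. The cluster led by Cyp11a1, described next, held 11.95 CPM of Dhh at 5 wk (9.99 to 14.2) from 131 UMIs. Without the library of 5 wk Dhh had too few counts to be tested, as it had without that of 2, 4 or 6 wk. In all, 3 of 8 members passed between these groups, where 16.6% of all genes passed. Beside this result, the 6 granulosa markers summed to 829 CPM in steroidogenic theca-like cells at 5 wk and to 176 to 258 CPM at the other ages. Inha made up 790 of the 829 CPM, whereas Amh (1.27 CPM), Fst (0.897 CPM) and Nr5a2 (2.17 CPM) were at their lowest at 5 wk and Fshr was at 0. The share of mitochondrial UMIs was 9.29% at 5 wk and 3.73 to 5.11% at the other ages. The part that other cells or cell quality play in the Dhh count was not tested.

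The steroidogenic theca-like group itself held a cluster of 874 cells led by Cyp11a1 and one of 612 cells led by Cpa1. In the first, Hhip was 220, 99.6, 52.1, 7.76 and 175 CPM and Ptch1 87.9, 181, 118, 39.6 and 130 CPM. In the second, Hhip was 403, 217, 251, 215 and 405 CPM and Ptch1 327, 413, 405, 195 and 502 CPM. Within each library the cluster led by Cpa1 had more of both genes, and of Gli1, than the cluster led by Cyp11a1. At 5 wk the latter supplied 483 of the 602 cells of the group. The clusters were set apart by other genes of these cells, so no test was made.

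**Figure D4:**
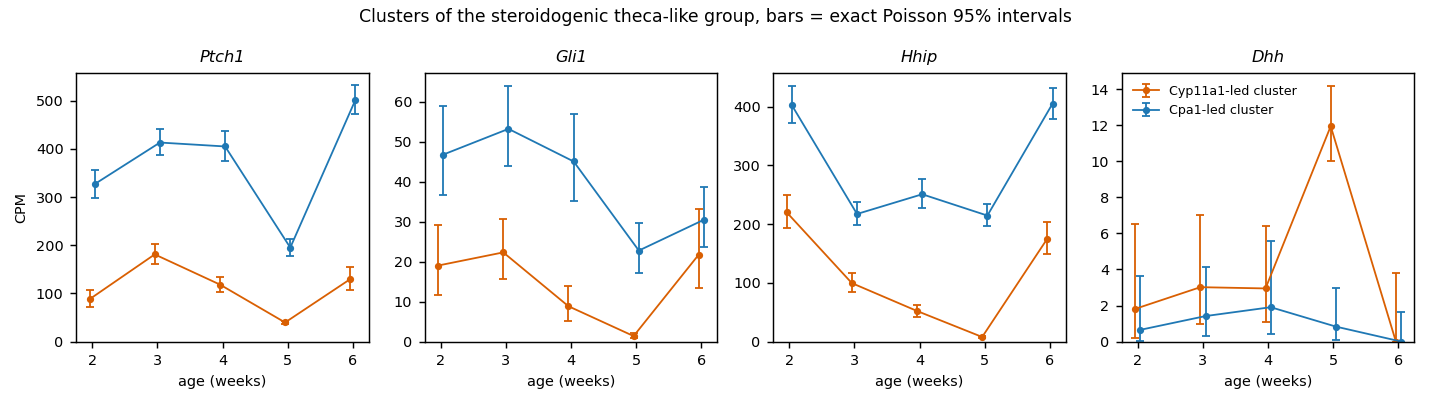
Levels of Ptch1, Gli1, Hhip and Dhh in CPM against age in weeks in the 2 clusters of the steroidogenic theca-like group, with bars for exact Poisson 95% intervals, which cover counting error only. The cluster led by Cyp11a1 is lower than the cluster led by Cpa1 in the first 3 genes at every age, and carries nearly all Dhh UMIs at 5 wk.

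The other genes of the pathway were taken from a list of 45 non-members, ordered by role. Between granulosa-like and stromal-like cells 40 of them could be tested, of which 3 were higher and 13 lower, where 32.8% of all genes passed in either direction. The higher ones were Disp1, which releases the lipid-bound ligand, Scube1, which helps carry it away from the cell, and Evc2, a partner of Smo. Scube2, a relative of Scube1, had the reverse pattern, at 14.7 to 36.7 CPM in stromal-like and 0.652 to 2.84 CPM in granulosa-like cells (log2 difference -4.35, SE 0.332, adjusted p = 3.27e-14). Of 8 genes of the primary cilium, the organelle in which the signal is read, 1 was lower (Arl13b) and 7 did not pass. The median log2 difference over the 40 was -0.45, against -0.02 over all genes.

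Of 5 genes listed as ligand co-receptors, 3 were lower in granulosa-like than in stromal-like cells (Boc, Gas1 and Gpc3) and the others did not pass. In this comparison 32.8% of all genes passed in either direction. Gas1, which helps Patched take up the ligand, was 177, 101, 98.8, 139 and 82.8 CPM in stromal-like cells and 10.6, 5.16, 3.604, 5.73 and 5.56 CPM in granulosa-like cells. It was low in theca-like cells too, at 9.64 to 37.2 CPM, and high in smooth muscle-like cells, at 130 to 395 CPM. Gas1 was lower than in stromal-like cells by a log2 difference of -4.56 in granulosa-like (SE 0.282, adjusted p = 2.11e-16) and of -2.75 in theca-like cells (SE 0.268, adjusted p = 7.48e-10). Cdon, a co-receptor of the same kind, was higher in theca-like cells, at 19.2 to 36.1 CPM against 5.14 to 11.5 CPM in stromal-like cells (log2 difference 1.64, SE 0.206, adjusted p = 4.50e-08). Gpc3 was listed with these genes, although it is a glypican that competes with Patched for the ligand. It was 115 to 242 CPM in stromal-like, 84.9 to 326 CPM in theca-like and 3.43 to 5.17 CPM in granulosa-like cells. Its level was lower in granulosa-like than in stromal-like cells by a log2 difference of -5.45 (SE 0.248, adjusted p = 1.38e-20).

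Among the listed targets of the pathway, 4 of 7 were lower in granulosa-like than in stromal-like cells (Bmp4, Ccnd1, Foxf1 and Foxl1) and none was higher, beside the 32.8% of all genes that passed in either direction. Ccnd1, which drives entry into the cell cycle, was 11.5 to 29.2 CPM in stromal-like and 0.495 to 1.08 CPM in granulosa-like cells (log2 difference -4.67, SE 0.528, adjusted p = 1.45e-09). In theca-like cells it was 49.6, 51.5, 35.2, 14.8 and 51.4 CPM, lowest at 5 wk. Foxl1, a forkhead factor of mesenchyme, gave 134 UMIs in stromal-like and 3 UMIs in granulosa-like cells.

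Between theca-like and stromal-like cells, 2 of 40 non-members were higher (Cdon and Mycn) and 3 lower (Gas1, Scube1 and Scube2), a share close to the 12.6% of all genes that passed. In early theca-like cells 38 could be tested against the other mesenchymal groups. The listed targets Ccnd1, Foxl1 and Mycn were among those higher, and 3 were lower (again Gas1, Scube1 and Scube2), where 4.88% of all genes passed. Between primary-like and primordial-like granulosa cells 36 could be tested, Scube1 was among those higher, and 4 were lower (Bmp4, Boc, Gpc3 and Mycn), where 10.1% of all genes passed. Between remodeling-like and antral-like cells none of 36 was higher and 2 were lower (Evc2 and Mycn), where 9.18% of all genes passed.

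Ages were compared by ratios with exact 95% intervals, which cover counting error only, since UMIs of 1 library stand for 1 preparation. In granulosa-like cells 6 wk over 2 wk, Ihh was 1.21 (1.17 to 1.26) and Dhh 1.11 (1.05 to 1.18), whereas Ptch1 was 0.617 (0.594 to 0.640). The ligands thus differed little between the first and last age, with their lowest Ihh value at 4 wk. Of the 8 members 3 lay past 2-fold (Gli1, Gli2 and Gli3, all lower), where 16.5% of the genes did. Gli1 and Gli2 were no higher in these cells than the highest hematopoietic value, and Gli3 was above it at 2 wk only. The make-up of the class moved with these ratios. From 2 to 6 wk primordial-like cells went from 270 to 50, primary-like cells from 394 to 198 and remodeling-like cells from 125 to 882. Median Ptch1 was 199 CPM in primordial-like and 147 CPM in primary-like cells, against 57.8 CPM in antral-like and 68.3 CPM in remodeling-like cells. Within primordial-like cells Ptch1 was 139 CPM at 2 wk and 222 CPM at 6 wk, and within primary-like cells 130 and 171 CPM, so neither group had the lower 6 wk value of the class. Dividing cells did, at 105 and 56.4 CPM, as did remodeling-like cells at 87.4 and 63.1 CPM. The remodeling-like group itself changed, since its cluster led by Pamr1 supplied 119 of 125 cells at 2 wk and 159 of 882 at 6 wk. Over the 5 libraries that cluster held 85.1 CPM of Ptch1, and the other remodeling-like clusters 68.5 and 47.0 CPM. Median Gli3 was 9.06 CPM in primordial-like cells and at most 2.71 CPM in the other named groups. The part of make-up in the ratios was not tested. Summed granulosa markers ranged from 4685 to 7224 CPM in this class.

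**Figure D5:**
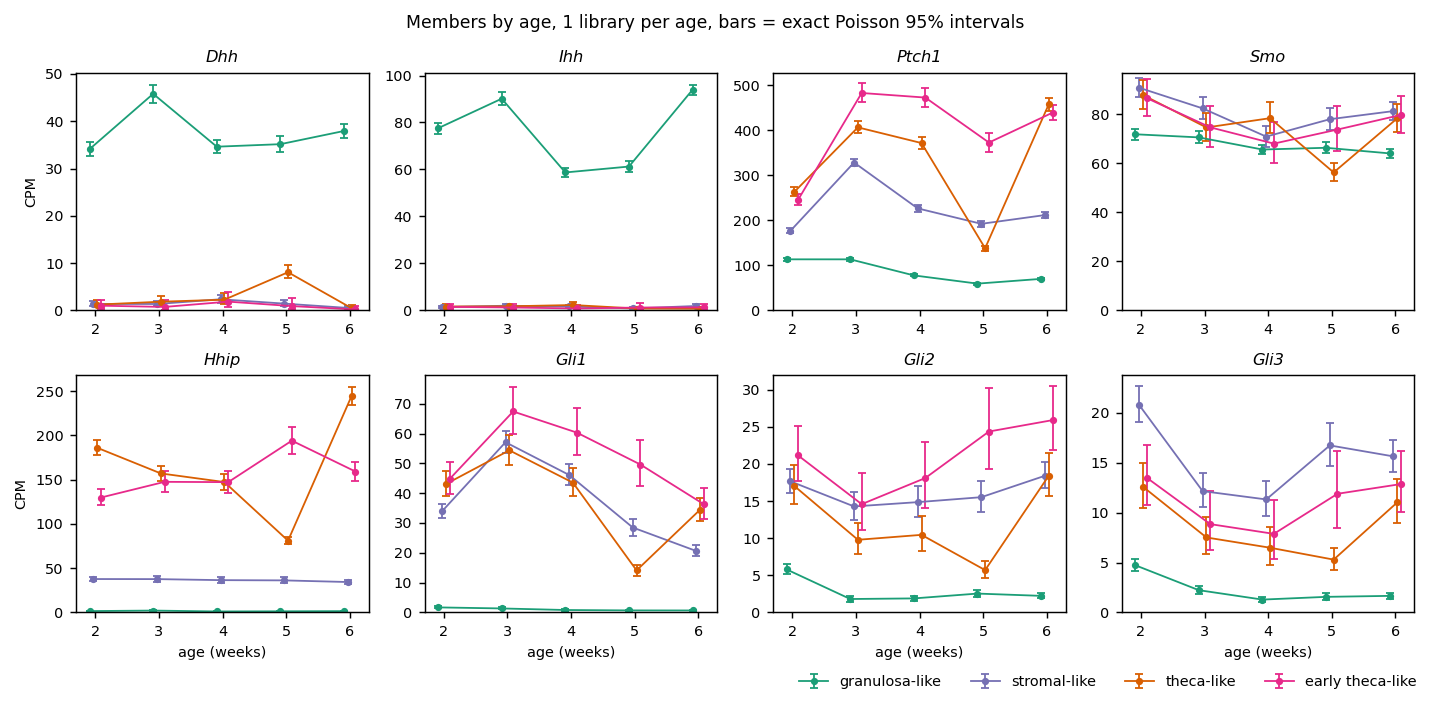
Levels of the 8 genes in CPM against age in weeks in granulosa-like, stromal-like, theca-like and early theca-like cells, with bars for exact Poisson 95% intervals, which cover counting error only. The low values of Ptch1, Hhip and Gli1 at 5 wk are seen in the theca-like class and not in early theca-like cells.

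In stromal-like cells Ptch1 was 1.198 times as high at 6 wk as at 2 wk (1.15 to 1.25) and Gli1 0.608 times (0.543 to 0.680). Gli1 was highest at 3 wk and lower at each later age. The pair of targets thus had ratios on opposite sides of 1. Only Dhh lay past 2-fold, at 0.374 (0.176 to 0.740) from 12 and 34 UMIs, so 1 of 8 members did, where 13.2% of the genes did. Stromal Dhh lay under the lowest hematopoietic value in 4 of 5 libraries, and no expression is read from it.

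In theca-like cells the library of 5 wk stood apart. Over the library of 2 wk, Hhip was 0.436 (0.406 to 0.468), Gli1 0.328 (0.279 to 0.385), Gli2 0.335 (0.258 to 0.432) and Ptch1 0.524 (0.496 to 0.555), while Dhh was 6.66 (3.69 to 13.2). Without the Hhip-led cluster the ratio was 0.0208 for Hhip, 0.0591 for Gli1, 0.0315 for Gli2 and 0.495 for Ptch1. Theca-like Dhh lay below the hematopoietic range at 2 wk and inside it at 5 wk, when it was above the pooled hematopoietic level of 3.54 CPM. In the class as a whole 6 of the 8 members lay past 2-fold, where 22.6% of the genes did. Among the 6 was Ihh, at 0.474 (0.210 to 1.05) from 13 and 16 UMIs, an interval that includes 1. The count was the same without the Hhip-led cluster, but not the set, since Ptch1 was past 2-fold only then. The 6 theca markers summed to 7776 CPM in this class at 5 wk and to 374 to 1007 CPM at the other ages, and the cluster led by steroid enzymes supplied 446 of its 802 cells. Early theca-like cells at 5 wk held 372 CPM of Ptch1, 194 CPM of Hhip and 49.6 CPM of Gli1, within or above the range of their other libraries. The make-up of the theca-like class thus moved with its levels, and its part in the difference was not tested.

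Shares of cells were taken after thinning each cell to 2000 UMIs, which left out 5242 of all cells. A Dhh UMI was found in 7.02% (exact 95% interval 6.65 to 7.40) of granulosa-like cells, against 0.739% (0.153 to 2.14) of hematopoietic-like cells. Ihh was found in 11.1% (10.7 to 11.6) and 0.493% (0.0597 to 1.77). Ptch1 was found in 39.0% of theca-like and 28.9% of stromal-like cells. Its share was 14.6% in the granulosa-like class and 4.43% in the hematopoietic-like class. For Hhip the shares were 19.9% of theca-like, 4.88% of stromal-like and 0.195% of granulosa-like cells, the last under the 0.985% of hematopoietic-like cells. At full depth the shares in granulosa-like cells, with a median of 14948 UMIs, were 36.7% for Dhh and 40.3% for Ihh. Those in hematopoietic-like cells, at 6692 UMIs, were 2.83 and 3.43%.

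Both ligands could be found in the same cell. Among thinned granulosa-like cells with a Dhh UMI 16.0% (14.0 to 18.2) also held Ihh, against 10.8% (10.3 to 11.2) of the rest, and the share was higher in cells with Dhh in all 5 libraries. In early theca-like cells 23.8% (20.9 to 27.0) of cells with a Ptch1 UMI also held Hhip, against 17.2% (14.7 to 19.8) of the rest. That held in 4 of 5 libraries. These are descriptions of cells that share a library and a class, and cells are not replicates.

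Across 117 sums, each of 1 cell group in 1 library, the genes most like Dhh among 14980 by Pearson's r of log2 levels were Arhgef28 (0.89), Inha (0.88) and Kif21a (0.88). Those most like Ihh were Klc2 (0.89), Nr5a2 (0.88) and Cnmd (0.88), and Dhh and Ihh correlated with each other at 0.82. For Ptch1 they were St6gal2 (0.79), Prdm6 (0.77) and Gpr27 (0.77), and for Hhip Prdm6 (0.84), St6gal2 (0.84) and Vgll3 (0.83). Gli1 was followed by Col1a2, Ror2 and Twist1, at 0.91 to 0.92. Many cells entered both the sum of a class and that of a group within it. Inha and Nr5a2 were also among the markers that named the granulosa-like class, so their likeness to the ligands is not independent of the naming. The sums share libraries and differ in depth, so these values describe likeness of pattern only.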

How the data were processed

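The deposited values were raw UMI counts per gene and cell, which the authors made with Cell Ranger on mm10. The submitters' processing notes name Cell Ranger 3.1.0 and Seurat 4.1.0, and the matrix headers name Cell Ranger 3.1.0 for 2, 3 and 4 wk and 6.0.1 for 5 and 6 wk, so the version cannot be told apart from age. Cell Ranger was run with defaults, which in these versions count exonic reads of the sense strand.

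The members, marker lists and pathway list were chosen with earlier results of these data known, and limits on naming were set after the clusters were seen. Libraries were integrated with Seurat 5.3.0 (2000 variable genes, less 10 pathway genes of which 3 were members; 30 principal components; resolution 1). A cluster was named only if it met 3 limits. At least 3 markers were detected, no more than 25% of its cells were doublets (Scrublet in Scanpy 1.11.5) and its median UMI count was at least 33.3% of its libraries'. In the first clustering, no other list with at least 3 markers detected could lie within 0.25 of its mean z score. Among granulosa-like cells this held for any other list, dividing clusters aside. The mesenchymal groups had no such margin. In both second clusterings, dividing clusters were named from at least 4 cycle markers and a mean z score of at least 0.5. Clusters whose leading genes held more markers of another list were also left without a name. Counts were summed per library and group (10 or more cells) and tested with edgeR 4.0.16's quasi-likelihood test with library as a block, Benjamini-Hochberg adjusted over all genes. Genes called had an adjusted p under 0.05 and at least a 2-fold change. DESeq2 1.42.0 was an alternative. In data simulated from these sums, recovery meant an adjusted p under 0.05 in the true direction, without the 2-fold condition of a call. So counted, 100% of 4-fold and 86.0% of 2-fold changes were recovered between granulosa and stromal sums. Between primary and primordial sums the shares were 97.0% and 68.0%. Only genes with many UMIs were changed, so these shares do not cover sparse members. The spread between sums (dispersion) was fixed at 0.05 and not taken from the data. All groups had the same base level and shared each library's effect, so a group difference that changes with age is not covered either.

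The text names all 8 members, Shh, and of the other called genes of the 53-gene pathway list the 5 with the largest change between granulosa-like and stromal-like cells and the 3 between theca-like and stromal-like cells. Other pathway genes were named after their values were seen. A further pathway gene that the rule covers is not reported here. For 5 members the 3 genes with the highest Pearson's r over log2(CPM + 1), among genes with at least 200 UMIs, were named. The 2 planned contrasts with secondary-like cells were not run, since no cluster could be named so. Because each age had 1 library, p-values measure the spread between libraries of different ages, and Poisson, conditional and Clopper-Pearson 95% intervals cover counting error only.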

Additional observations from a re-analysis of the deposited data

Results flagged for a closer look

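Ratios of 6 wk over 2 wk lay on opposite sides of 1 in granulosa-like and stromal-like cells for Dhh and Ptch1. Dhh had a ratio of 1.11 in granulosa-like cells and of 0.374 in stromal-like cells, the latter from 12 and 34 UMIs at a level under the lowest hematopoietic value, so no change of the ligand is read from it. Ptch1 had a ratio of 0.617 in granulosa-like cells and of 1.198 in stromal-like cells. With 1 library per age these differences between cell types were not tested.

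At 5 wk the ratio of Ptch1 in theca-like over stromal-like cells was 0.718 (exact 95% interval 0.679 to 0.759), while the libraries of the other 4 ages had ratios above 1. This difference was not tested either.

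For each of the 8 genes, the highest of the 4 clusters left without a name for low UMI counts lay above hematopoietic-like cells. The cluster differed between genes, and not every member was above that level in each, with Hhip at 3.18 CPM in cluster 3 and 6.83 CPM in cluster 27, and Ihh at 6.05 CPM in cluster 15. Cluster 3, of 2779 cells with a median of 1976 UMIs, held 45.4 CPM of Dhh (40.1 to 51.1), against 3.54 CPM in hematopoietic-like cells. Cluster 27, of 410 cells, held 74.5 CPM of Ihh, against 9.68 CPM. Cluster 15, of 1548 cells, held the response genes, with 388 CPM of Ptch1, 131 CPM of Smo, 99.3 CPM of Hhip, 70.1 CPM of Gli1, 27.4 CPM of Gli2 and 22.8 CPM of Gli3. Hematopoietic-like cells held 49.6 CPM of Ptch1, 24.5 CPM of Smo, 13.5 CPM of Hhip, 4.72 CPM of Gli1, 2.36 CPM of Gli2 and 1.89 CPM of Gli3.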

How the results depend on the processing

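Over the tests of single members, 721 alternative values kept direction and side of the threshold, 21 passed newly, 8 no longer passed and 22 turned direction. The cause was not tested. Some of the 22 also changed side of the threshold. Against stromal-like cells, theca-like cells newly passed for Ptch1 (lower) without the Hhip-led cluster and for Ihh (higher) at resolution 0.6. Gli2 between granulosa-like and theca-like cells no longer passed without the Hhip-led cluster. Members called between theca-like and stromal-like cells numbered 1. They numbered 5 with the pathway genes kept in the clustering, where 2913 of 13901 genes were called, and at resolution 0.6, where 2555 of 13905 were. They also numbered 5 without the Hhip-led cluster (chosen after seeing the data), where 3367 of 13529 genes were called. There were 2 without doublets and 1 to 2 leaving out 1 library (Dhh was gained without 2 or 4 wk). Between granulosa-like and theca-like cells 4 rather than 7 were called without the Hhip-led cluster, where 3503 of 13529 genes were. Between smooth muscle-like and stromal-like cells 0 were called with the pathway genes kept or at resolution 0.6 (edgeR), and between primary-like and primordial-like cells 4 with the pathway genes kept. Leaving out 1 library gave 1 to 2 members for early theca-like cells against the other groups and 1 to 3 for steroidogenic against early theca-like cells, the fewest in each case without 5 wk. With stricter cells 3 rather than 6 members lay past 2-fold in theca-like cells between 5 and 2 wk. Without thinning, the shares of cells with a UMI were 36.7% for Dhh and 40.3% for Ihh in granulosa-like cells and 60.9% for Ptch1, 24.9% for Gli1 and 14.4% for Hhip in stromal-like cells.

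Apart from Gli2 between remodeling-like and antral-like cells, log2 differences that turned direction were small or rested on the theca-like class. Between theca-like and stromal-like cells Ptch1 was -0.54 with the pathway genes kept, -0.0187 at resolution 0.6 and -1.46 without the Hhip-led cluster, and Ihh was 0.96 and 1.01 in the first 2 of these. Leaving out 1 library gave -0.30 to 0.0937 for Ihh and -0.19 to 0.23 for Gli1, which was 0.00377 with no low-count filter, 0.0571 with stricter cells and 0.0129 without doublets. Between granulosa-like and theca-like cells without the Hhip-led cluster, Gli2 was 0.74 and Smo 0.00277. Ihh in early theca-like cells against the other groups ranged from -0.11 to 0.13 leaving out 1 library, and was -0.13 with the pathway genes kept and -0.0223 at resolution 0.6. Hhip in steroidogenic against early theca-like cells ranged from -0.0603 to 0.63, and Dhh in smooth muscle-like against stromal-like cells from -0.0273 to 0.42. Gli2 in remodeling-like against antral-like cells was -0.0917 with the pathway genes kept, but 0.87 to 1.37 leaving out 1 library. It passed as higher with DESeq2 (1.16, adjusted p = 0.0479), where 3 members were called. It also passed in edgeR's test without the library of 3 wk (1.37, adjusted p = 0.00975). The ratio of Ihh in theca-like cells, 5 wk over 2 wk, was 1.27 without doublets.

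Each library entered the fits as a block because its cell groups come from the same preparation. The fit with no library term, and so no replicate block, changed no call of a member, and turned Ihh in early theca-like cells to -0.00119.

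Genes called between theca-like and stromal-like cells numbered 1750 in all, 1148 without the library of 5 wk, 2913 with the pathway genes kept and 3367 without the Hhip-led cluster. Between remodeling-like and antral-like cells they numbered 1092, and 1694 at resolution 0.6. Values of Gli1 and Hhip in granulosa-like cells and of both ligands in the mesenchyme stand on few UMIs, which limits what they can show.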

Other observations

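Granulosa-like cells with mixed stage markers also held both ligands. The largest cluster with primary and secondary markers, of 1890 cells, held 36.0, 38.1, 47.0, 39.1 and 43.4 CPM of Dhh and 77.6, 76.7, 112, 105 and 153 CPM of Ihh from 2 to 6 wk. The other such cluster, of 865 cells, held 39.7 CPM of Dhh and 118 CPM of Ihh over the 5 libraries, with 99.1 to 155 CPM of Ihh within them. The cluster with antral and secondary markers held 33.9 to 63.0 CPM of Dhh and 78.2 to 139 CPM of Ihh. The cluster with antral and remodeling markers held 16.2 to 35.6 CPM of Dhh and 36.0 to 140 CPM of Ihh, ranges that overlapped those of the antral and secondary cluster.

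Clusters with mixed stromal and smooth muscle markers, 1564 cells in all, were led by cell cycle genes such as Uhrf1 and Ccnb1. They held 355 and 392 CPM of Ptch1 and 116 and 167 CPM of Hhip over the 5 libraries. Their cells also entered the regrouping of mesenchymal cells described above, so these values are not independent of those groups. Their median UMI counts were 21133 and 19319 per cell.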
